A study of Rattus norvegicus with 20 samples.

Results

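The genes described here encode the proteins of the extracellular matrix other than collagen, together with the enzymes that process and crosslink collagen, and they were read in rat inguinal white adipose tissue (iWAT), a subcutaneous fat depot. They were chosen by name, as the rows of the gene count table whose gene name is on a list of 54. Of these names 51 were found, on 53 of the 32545 rows, since Ogn and Aspn each have 2 rows. Podn, Pcolce2 and Hspg2 were not found by name. Mfap4 had 1 read in all 20 libraries together and was left out by the filter on low counts, so 52 rows were tested among 17653 genes.

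The libraries came from male ZSF1 rats, 5 in each of 4 groups, which all ate a high carbohydrate Purina chow from 8 to 9 weeks of age, entered a 10 week study at 21 to 22 weeks and gave iWAT at its end. Lean rats are littermates without homozygous mutation of the leptin receptor and were given no drug, whereas the other 3 groups are obese rats that carry it on both alleles, so that leptin signalling is deficient in every obese animal, treated or not. Obese rats ate freely with no drug. Cmpd 1 rats ate the chow mixed with Cmpd 1, an inhibitor of protein kinase C α and β, and Food matched rats received, without drug, about as much chow as the Cmpd 1 rats had eaten the week before. By their titles the Food matched samples are obese, although 1 of their labels calls the phenotype lean, and the titles were followed.

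The matrix around fat cells holds fibrillar collagen, whose fibrils are coated and spaced by small leucine-rich proteoglycans, and elastic fibres, in which elastin is deposited on fibrillin microfibrils. Lysyl oxidases crosslink both, while prolyl and lysyl hydroxylases and a collagen chaperone act on the chains inside the cell. Each adipocyte is also wrapped in a basement membrane of laminin, nidogen, collagen IV and heparan sulfate proteoglycans, and matricellular proteins such as tenascin-C are laid down in remodelling tissue. In expanding fat this matrix is known to be remodelled.

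Between 31716457 and 74784655 reads were counted per library, and 2.2% to 2.9% of them fell on the listed genes. The share of reads was 2.5% ± 0.218 (SD, n = 5 rats) in Lean, 2.63% ± 0.162 in Obese, 2.48% ± 0.134 in Food matched and 2.52% ± 0.0648 in Cmpd 1 animals. The groups overlapped in this share. Marker genes of adipocytes summed to 22800 to 26700 CPM in Lean and 18500 to 23600 CPM in the obese groups, where CPM is the read count scaled to a common library size with TMM factors (trimmed mean of M values). Of these 6 markers Adipoq (log2 fold change −0.76), Lipe (−0.81) and Cidec (−0.61) fell and Lep (0.73) rose in Obese animals (edgeR adjusted p under 0.05 and a fold over 1.5, here and for the other markers). With Cmpd 1 relative to Food matched animals Adipoq, Lipe and Lep were at 0.47, 0.52 and −0.55, below that fold. In whole tissue, fewer cells of a type and less RNA per cell cannot be told apart. Lean rats 1 and 2 held skeletal muscle transcripts, with 6 muscle markers summing to as much as 4760 CPM, and mesothelial markers, which also reached 95 CPM in Obese rat 2. The summed level of 6 macrophage markers ran from 835 to 1080 CPM in Lean, 1690 to 2190 in Obese, 1790 to 2710 in Food matched and 1200 to 1590 in Cmpd 1 animals. Of these markers 3 rose in Obese animals and 3 fell with Cmpd 1 relative to Food matched animals. The summed level of 7 progenitor and fibroblast markers ran from 724 to 1030 CPM in Lean, 622 to 861 in Obese, 634 to 858 in Food matched and 615 to 863 in Cmpd 1 animals, which hides members that moved in opposite directions. Of these Dpp4 (log2 fold change −2.01), Pi16 (−1.23), Cd34 (−0.94) and Meox2 (−0.59) fell in Obese animals, while Thy1 rose by 2.25 and was at −0.60, again called, with Cmpd 1. Mural cell markers summed to 631 to 1100 CPM in Lean and 421 to 601 in the obese groups, and endothelial markers to 501 to 776 CPM in all. Of the mural markers Myh11 (−0.70) fell in Obese animals, and with Cmpd 1 Cspg4 (0.59) rose and Des (−1.57) fell. Of 4 endothelial markers Tek (−0.80) fell and 0 rose in Obese animals, and 0 were called with Cmpd 1. Schwann cell markers reached 267, epithelial markers 118 and lymphocyte markers 56.3 CPM, each in a Lean rat. The part of these cells in the results below was not tested.

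In Obese versus Lean animals 9 of the 52 matrix genes were higher and 3 were lower by a fold over 1.5 and an adjusted p under 0.05, which is the meaning of rose and fell here. That is 17.3% and 5.77% of them, against 11.3% and 11% of all genes tested. In Cmpd 1 versus Food matched animals, the contrast that holds food intake alike, 2 were higher (3.85%) and 5 lower (9.62%), against 1.54% and 4.65% of all genes. The median log2 fold change of the matrix genes was 0.16 for Obese versus Lean, where that of all genes was −0.01, and −0.10 for Cmpd 1 versus Food matched, where it was 0.01. Tnc, Ctgf, Lum, Fn1 and Bgn rose in Obese animals and fell with Cmpd 1, and Nid2 fell in Obese animals and rose with Cmpd 1. These 6 are all the matrix genes called in both contrasts, which share no rat, and 0 moved the same way in both. The share of all genes called in both was not counted here. The paper describes a partial return to the Lean profile with Cmpd 1 over all genes shared by these contrasts. Reversal was thus not shown to be particular to the matrix genes.

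An adjusted p under 0.05 without the fold was reached by a further 19 genes in Obese versus Lean animals, which makes 20 higher and 11 lower, and by a further 10 in the Cmpd 1 contrast, which makes 5 higher and 12 lower. Of all 17653 genes tested, 4180 were higher and 4320 lower in Obese versus Lean animals by this measure. In the Cmpd 1 contrast 2015 of all genes were higher and 2016 lower. The values of the 2 groups did not overlap for 15 genes higher and 5 genes lower in Obese animals, where 17.7% and 15.9% of all genes were so separated. With Cmpd 1 they did not overlap for 6 higher and 11 lower genes, where the background was 7.05% and 7.86%. Across the 4 groups 37 of 52 (71.2%) differed at an adjusted p under 0.05 by edgeR's quasi-likelihood F test, against 54.6% of all genes. The other 15 were Fbn2, Fbln1, Mfap5, Sparcl1, Thbs4, Fmod, Ogn and its second row, the second row of Aspn, Loxl2, P4ha2, P4ha3, Plod2, Nid1 and Lamc1.

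**Figure D1:**
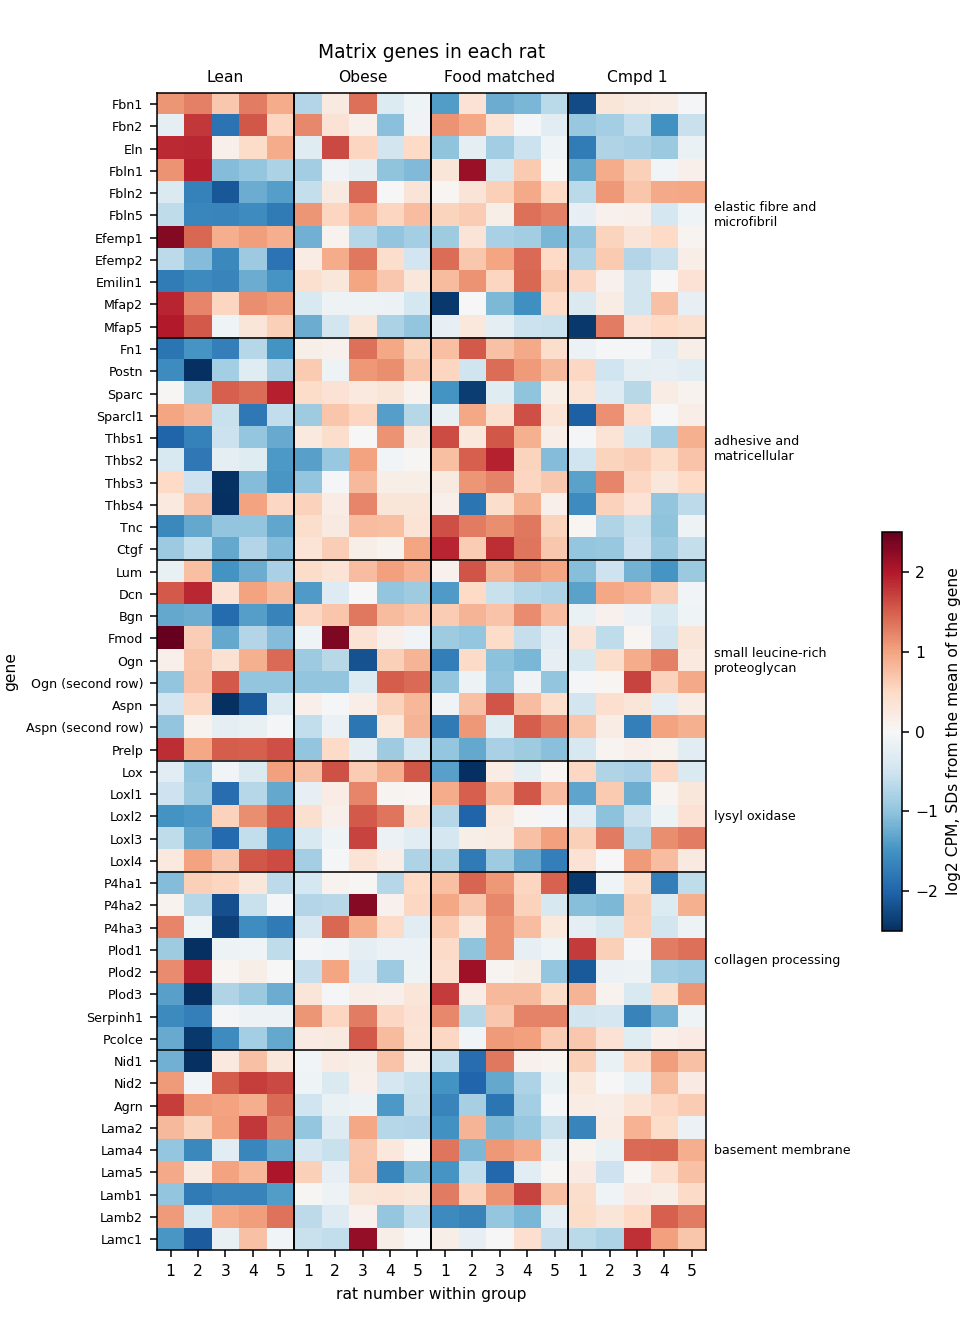
Each row is 1 of the 52 matrix genes, grouped by role, and each column is 1 rat. Colour gives the log2 CPM in standard deviations from the gene's own mean over the 20 libraries, drawn up to 2.5 in either direction. Bgn, Emilin1 and Tnc are low in all 5 Lean rats, and Prelp is high in all 5.

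In a principal component analysis of the 52 genes, the first component held 39.4% of the variance and the second 20.3%. Lean rats lay between −4.12 and −2.74 on the first component and Cmpd 1 rats between −1.66 and −0.0268. Obese rats lay between 1.02 and 1.95 and Food matched rats between 1.71 and 3.17. Lean and Cmpd 1 rats were thus apart from each other and from the rest, while Obese and Food matched rats overlapped. Tnc had the largest weight on this component (0.486).

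Among the 10 adhesive and matricellular genes, 5 rose and 0 fell in Obese animals, and 3 fell and 0 rose with Cmpd 1. For this and the other roles below, 11.3% of all genes rose and 11% fell in Obese animals. With Cmpd 1 1.54% of all genes rose and 4.65% fell. Their median log2 fold change was 0.52 and −0.42 in the 2 contrasts. Tnc, which encodes tenascin-C, a matrix protein of remodelling and injured tissue, lies on the minus strand of chromosome 5 (79789671 to 79874671 in rn6). It was at 7.99, 10.7, 13.6, 13.5 and 10.4 CPM in Lean rats 1 to 5, and at 43.8, 36.8, 57.6, 56.3 and 40.6 CPM in Obese rats. In Food matched rats it was at 115, 88.1, 78.9, 90.3 and 48.2 CPM, and in Cmpd 1 rats at 31.7, 16.4, 19.3, 13.4 and 27.6 CPM. Every Obese rat was above every Lean rat and every Food matched rat above every Cmpd 1 rat, and Cmpd 1 rats overlapped with Lean rats. Mean levels were 11.2 ± 2.35 CPM (SD, n = 5 rats) in Lean, 47.0 ± 9.42 in Obese, 84.1 ± 24.1 in Food matched and 21.7 ± 7.72 in Cmpd 1 animals. Tnc rose by 2.07 on the log2 scale in Obese animals (standard error 0.24, edgeR adjusted p = 4e-07) and changed by −1.95 with Cmpd 1 relative to Food matched animals (standard error 0.23, edgeR adjusted p = 3.5e-05). Both were the largest changes of any matrix gene called in their contrast.

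Ctgf, also named Ccn2, encodes connective tissue growth factor, a matricellular protein and a classic target of the factors YAP and TAZ, which act through TEAD proteins. It lies on the minus strand of chromosome 1 (21851660 to 21854773 in rn6). Its levels were 40.0, 46.9, 32.7, 43.9 and 36.2 CPM in Lean rats and 79.1, 91.0, 70.8, 68.5 and 111 CPM in Obese rats. In Food matched rats they were 183, 91.7, 178, 134 and 93.9 CPM, and in Cmpd 1 rats 38.6, 39.2, 49.2, 39.8 and 47.4 CPM. All Obese and Food matched rats were above all Lean and Cmpd 1 rats, and the Cmpd 1 rats lay within or next to the Lean range. Means were 39.9 ± 5.73 CPM in Lean, 84.1 ± 17.5 in Obese, 136 ± 43.8 in Food matched and 42.8 ± 5.05 in Cmpd 1 animals. The log2 fold change was 1.07 in Obese versus Lean animals (standard error 0.18, adjusted p = 4.5e-05 from edgeR) and −1.67 with Cmpd 1 (standard error 0.18, adjusted p = 2.8e-05 from edgeR). Between Cmpd 1 and Lean rats it was 0.10 (standard error 0.18, adjusted p = 0.69 from edgeR).

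The promoters of Tnc and Ctgf are shown because these genes had the largest changes with Cmpd 1 among those called. The sequences are from RefSeq in build GRCr8, which is not the build of the count table, and run 5′ to 3′ on the gene's strand over the 250 bases before the start site. Capitals mark TATAAA, a common core promoter element. They also mark GGAATG, a motif of TEAD proteins. The first is on the minus strand at chr5:82476132-82476381, the second on the minus strand at chr1:22624615-22624864.
Tnc: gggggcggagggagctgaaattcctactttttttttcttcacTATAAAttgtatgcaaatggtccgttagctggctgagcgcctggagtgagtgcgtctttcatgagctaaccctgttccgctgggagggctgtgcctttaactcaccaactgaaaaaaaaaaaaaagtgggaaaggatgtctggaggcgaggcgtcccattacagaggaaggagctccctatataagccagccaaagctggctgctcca
Ctgf: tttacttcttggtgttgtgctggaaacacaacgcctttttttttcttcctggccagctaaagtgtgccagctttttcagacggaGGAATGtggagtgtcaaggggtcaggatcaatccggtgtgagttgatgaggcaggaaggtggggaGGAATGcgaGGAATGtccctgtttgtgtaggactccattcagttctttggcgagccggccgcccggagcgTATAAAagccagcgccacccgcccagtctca
The Ctgf promoter holds GGAATG 3 times, starting 166, 101 and 92 bases before the start site, and TATAAA 31 bases before it. The Tnc promoter holds TATAAA 208 bases before the start site and no GGAATG. Close to the start site its printed sequence also holds tatataa, which is not an exact match to TATAAA and so is not in capitals. Which of these stretches, if any, acts as a core promoter element was not tested. A promoter, counted with the 50 bases after the start, was found for 40 of the 54 names, and both strands were searched for exact matches. GGAATG, searched only after the Ctgf sequence had been read, was in 11 of the 40 (27.5%) and in 13.9% of all 27457 promoters, of which 0.106% held more than 2 copies. TATAAA was in 5 of 40 (12.5%, against 14.3% of all) and ACGTG, the core of the hypoxia element, in 6 of 40 (15.0%, against 19.7%). The AP-1 motif TGACTCA and the SMAD palindrome GTCTAGAC were in 0 of 40, against 4.53% and 0.215% of all promoters. A match is a string of letters and not a measured site.

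**Figure D2:**
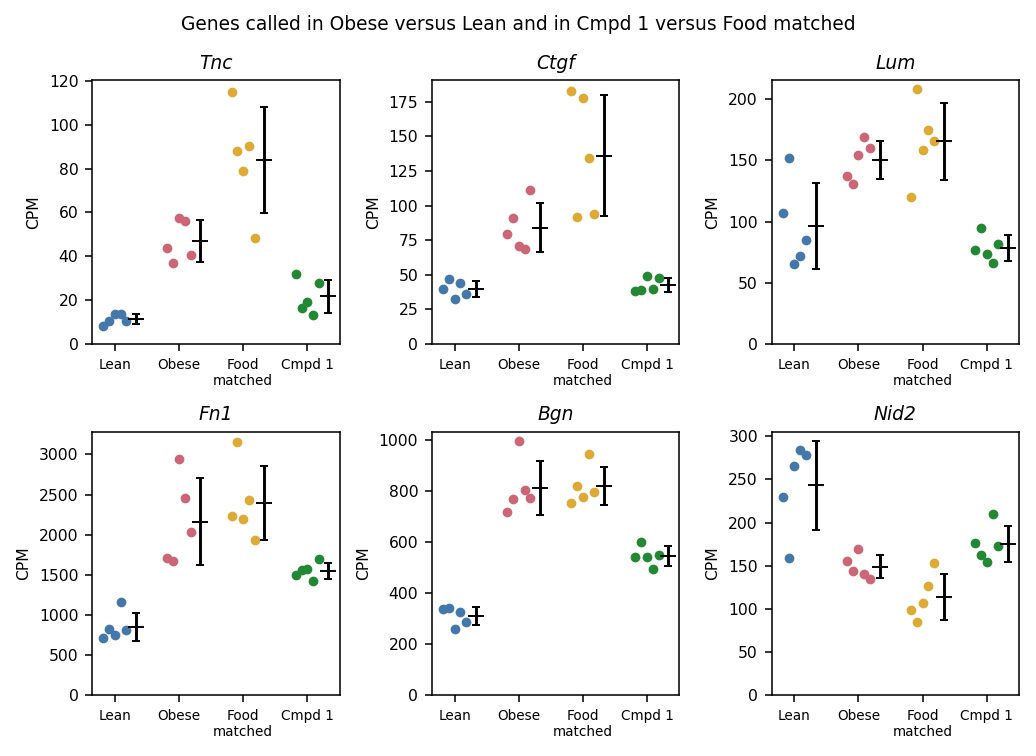
Each panel shows 1 of the 6 matrix genes called in both contrasts, in CPM on a linear axis from 0. Coloured points are the 5 rats of each group and black marks the mean with its standard deviation. Tnc and Ctgf are highest in Food matched rats, while the Cmpd 1 rats lie between 13.4 and 31.7 CPM for Tnc and between 38.6 and 49.2 CPM for Ctgf.

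Fn1, fibronectin, the glycoprotein on which cells assemble other matrix, was at 711, 828, 751, 1160 and 819 CPM in Lean and 1710, 1670, 2940, 2460 and 2040 CPM in Obese rats. It was at 2230, 3160, 2200, 2430 and 1940 CPM in Food matched and 1500, 1560, 1570, 1420 and 1700 CPM in Cmpd 1 rats. The groups of each contrast did not overlap, and Cmpd 1 rats also lay above every Lean rat. Fn1 rose by 1.34 on the log2 scale in Obese animals (standard error 0.16, adjusted p = 5.8e-07 from edgeR) and changed by −0.63 with Cmpd 1 (standard error 0.15, adjusted p = 0.006 from edgeR). Without Food matched rat 2, the highest of its group, the latter was −0.51 and below the fold of 1.5.

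Postn, periostin, a matricellular protein that binds collagen, was at 1010, 701, 1330, 1620 and 1340 CPM in Lean and 2300, 1730, 2710, 2790 and 2350 CPM in Obese rats, with no overlap. In Food matched rats it was at 2210, 1510, 3040, 2680 and 2450 CPM and in Cmpd 1 rats at 2200, 1510, 1670, 1680 and 1630 CPM, which overlap. Postn rose by 0.99 in Obese animals (standard error 0.20, edgeR adjusted p = 0.00029) and differed by −0.45 with Cmpd 1, which did not pass (standard error 0.19, adjusted p = 0.10 from edgeR). Thbs1, thrombospondin-1, an activator of latent TGF-β, was at 288 ± 54.9 CPM in Lean and 502 ± 75.4 CPM in Obese animals, which did not overlap. It rose by 0.80 (standard error 0.17, adjusted p = 0.00043 from edgeR), and its change with Cmpd 1 was −0.44 (adjusted p = 0.061 from edgeR).

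Sparc, osteonectin, a collagen-binding matricellular protein, had the most reads of all the matrix genes. It was at 10000, 8500, 13100, 12800 and 14200 CPM in Lean and 10900, 10600, 10400, 10600 and 10100 CPM in Obese rats. It was at 7610, 6480, 9450, 8310 and 10200 CPM in Food matched and 10600, 9390, 8780, 10300 and 10100 CPM in Cmpd 1 rats. Lean rats spread on both sides of the Obese rats. Between Obese and Lean it differed by −0.16 (adjusted p = 0.31 from edgeR) and 0.23 with Cmpd 1 (adjusted p = 0.21 from edgeR), and neither passed. Sparcl1 (−0.03 and −0.12), Thbs2 (0.19 and −0.15), Thbs3 (0.24 and −0.12) and Thbs4 (0.21 and −0.40) did not pass in either contrast.

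Of the 9 rows of small leucine-rich proteoglycans, which bind collagen fibrils, 2 rose and 1 fell in Obese animals, and 2 fell with Cmpd 1. Biglycan and decorin, close relatives within the family, differed in opposite directions. Bgn, biglycan, on chromosome X (157319046 to 157331204 in rn6), was at 339, 343, 259, 326 and 289 CPM in Lean and 718, 771, 997, 806 and 773 CPM in Obese rats. It was at 756, 822, 778, 946 and 798 CPM in Food matched and 541, 603, 543, 494 and 551 CPM in Cmpd 1 rats. Cmpd 1 rats lay in a gap of their own, above every Lean rat and below every Obese and Food matched rat. Bgn rose by 1.39 in Obese animals (standard error 0.09, adjusted p = 7.2e-10 from edgeR). With Cmpd 1 the log2 fold change was −0.59 (standard error 0.09, adjusted p = 0.00021 from edgeR), next to the threshold of 0.585, and it was below that threshold, at −0.53 to −0.58, under 10 other settings, among them leaving out Food matched rat 2 or 4 or Cmpd 1 rat 1, 3 or 4.

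Dcn, decorin, on the plus strand of chromosome 7 (38742051 to 38782323 in rn6), was at 1810, 1970, 1360, 1590 and 1510 CPM in Lean and 882, 1150, 1240, 979 and 1000 CPM in Obese rats. It was at 885, 1410, 1090, 1050 and 1030 CPM in Food matched and 901, 1570, 1530, 1440 and 1220 CPM in Cmpd 1 rats. Every Lean rat was above every Obese rat, and Cmpd 1 rats overlapped with all 3 other groups. Dcn fell by 0.65 in Obese animals (standard error 0.14, adjusted p = 0.00088 from edgeR), and the change with Cmpd 1 was 0.29 (standard error 0.14, adjusted p = 0.16 from edgeR). Without Lean rats 1 and 2, its highest, the Obese versus Lean value was −0.50, and without Lean rat 2 alone it was −0.57, both below the fold of 1.5.

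Per length, biglycan reads were 0.146 ± 0.00857 (SD, n = 5 rats) of decorin reads in Lean, 0.596 ± 0.0483 in Obese, 0.589 ± 0.0957 in Food matched and 0.327 ± 0.0816 in Cmpd 1 animals. The ratio ran from 0.134 to 0.158 in Lean rats and from 0.514 to 0.632 in Obese rats. It ran from 0.263 to 0.461 in Cmpd 1 rats, apart from the Lean and Obese rats, and the highest of them lay within the Food matched range of 0.449 to 0.694. Decorin remained the more abundant of the pair in every rat. This ratio was chosen after the values were seen and was not tested.

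Lum, lumican, which lies next to Dcn on chromosome 7 (38819771 to 38826862 in rn6), was at 107, 152, 65.2, 71.8 and 84.7 CPM in Lean and 137, 131, 154, 169 and 160 CPM in Obese rats. It was at 120, 208, 158, 175 and 166 CPM in Food matched and 76.6, 94.7, 73.6, 65.9 and 81.3 CPM in Cmpd 1 rats. Lean rat 2 lay among the Obese rats, while Cmpd 1 rats lay below every Food matched rat. Lum rose by 0.64 in Obese animals (standard error 0.18, adjusted p = 0.0059 from edgeR) and changed by −1.08 with Cmpd 1 (standard error 0.18, adjusted p = 0.00038 from edgeR). Without Lean rat 3 the first was 0.53 and without Lean rat 4 it was 0.55, both below the fold of 1.5.

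Prelp, a basement membrane and cartilage proteoglycan, was at 734 ± 35.7 CPM in Lean, 549 ± 50.3 in Obese, 500 ± 13.4 in Food matched and 576 ± 21.5 in Cmpd 1 animals. Its log2 fold changes of −0.42 for Obese versus Lean (adjusted p = 2.3e-06 from edgeR) and 0.20 with Cmpd 1 (adjusted p = 0.01 from edgeR) passed the adjusted p and not the fold. Fmod, fibromodulin, was at 98.3 CPM in Lean rat 1 and 90.4 CPM in Obese rat 2, while the other 18 rats did not exceed 44 CPM. The mesothelial marker Msln was at 167 and 61.5 CPM in those 2 rats, and its part in the Fmod values was not tested. Aspn, asporin, changed by 0.43 in Obese animals (adjusted p = 0.037 from edgeR), and Ogn, osteoglycin, by −0.37 (adjusted p = 0.11 from edgeR). Ogn and Aspn have a second row each on chromosome 17 with 54 and 252 reads in all. Counts of near-identical copies are uncertain, because only uniquely mapped reads were counted. Reads that match both copies would be left out, so the levels of all these rows may be too low.

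**Figure D3:**
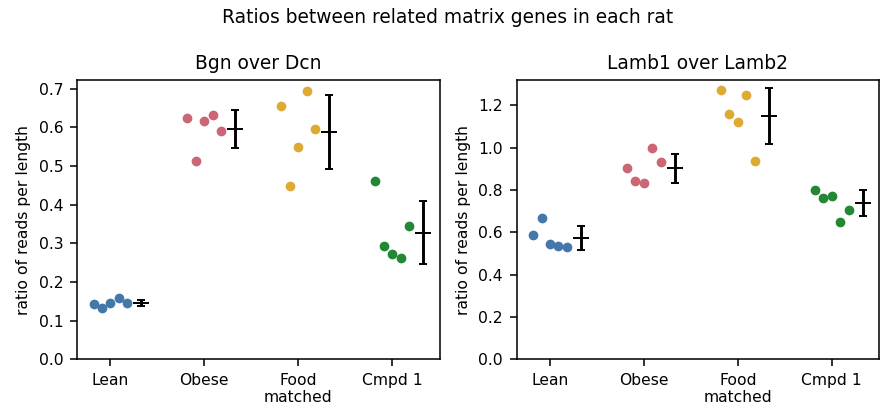
Reads per length of Bgn over those of Dcn (left) and of Lamb1 over those of Lamb2 (right), 1 coloured point per rat, with the mean and standard deviation of the 5 rats in black. Lean rats are lowest in the left panel, between 0.134 and 0.158, and Food matched rats reach the highest values in both.

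Of the 11 elastic fibre and microfibril genes tested, 1 rose and 1 fell in Obese animals and 0 passed both thresholds with Cmpd 1. Emilin1, a glycoprotein at the surface of elastic fibres, was at 10.9, 11.7, 11.4, 13.8 and 12.4 CPM in Lean and 30.8, 29.2, 41.1, 35.2 and 29.3 CPM in Obese rats. It was at 37.5, 43.8, 32.9, 51.0 and 35.0 CPM in Food matched and 32.6, 26.7, 20.4, 25.6 and 30.2 CPM in Cmpd 1 rats. All obese rats, with or without drug, were above all Lean rats. Emilin1 rose by 1.46 in Obese animals (standard error 0.13, adjusted p = 1.8e-08 from edgeR), and its change of −0.56 with Cmpd 1 passed the adjusted p and not the fold (standard error 0.13, adjusted p = 0.0034 from edgeR).

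Efemp1, fibulin-3, was at 246, 169, 133, 142 and 133 CPM in Lean and 52.9, 93.2, 65.8, 58.1 and 62.1 CPM in Obese rats. It was at 61.1, 104, 62.7, 61.2 and 54.1 CPM in Food matched and 58.6, 114, 103, 112 and 92.7 CPM in Cmpd 1 rats. Every Lean rat was above every obese rat, whatever its treatment. Efemp1 fell by 1.31 in Obese animals (standard error 0.21, adjusted p = 3.3e-05 from edgeR) and differed by 0.48 with Cmpd 1 (standard error 0.21, adjusted p = 0.10 from edgeR). Of the other fibulins listed, 3 differed in the opposite direction, with log2 fold changes for Obese versus Lean of 0.55 for Fbln2, 0.45 for Fbln5 and 0.35 for Efemp2 (fibulin-4), which passed the adjusted p and not the fold (adjusted p = 0.00087, 4.8e-07 and 0.00036 from edgeR). Fbln1, fibulin-1, had the sign of Efemp1 at −0.81 and did not pass (standard error 0.43, adjusted p = 0.12 from edgeR), and with Cmpd 1 it was at −0.43 (adjusted p = 0.53 from edgeR).

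Fbn1, fibrillin-1, the backbone of microfibrils, was at 1090, 1140, 975, 1140 and 1040 CPM in Lean and 674, 867, 1170, 746 and 793 CPM in Obese rats. It was at 565, 899, 588, 604 and 683 CPM in Food matched and 453, 885, 868, 857 and 807 CPM in Cmpd 1 rats. The Obese range took in the Lean range because of Obese rat 3. The log2 fold change of −0.34 for Obese versus Lean did not pass (adjusted p = 0.096 from edgeR), nor did that of 0.21 with Cmpd 1 (adjusted p = 0.40 from edgeR).

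Mfap5, a microfibril glycoprotein, was at 148, 134, 94.2, 103 and 109 CPM in Lean and 73.6, 87.3, 103, 81.1 and 77.9 CPM in Obese rats. It was at 92.0, 102, 91.4, 85.8 and 85.3 CPM in Food matched and 56.9, 127, 104, 107 and 105 CPM in Cmpd 1 rats. Lean rats 1 and 2 were the highest and Cmpd 1 rat 1 the lowest. The difference between Obese and Lean, −0.48, passed the adjusted p (0.016 from edgeR) and not the fold, as did that of its relative Mfap2 (−0.51, adjusted p = 0.0045 from edgeR). Eln, elastin itself, was at 118 ± 32.8 CPM in Lean, 94.6 ± 29.3 in Obese, 66.6 ± 8.98 in Food matched and 59.8 ± 11.3 in Cmpd 1 animals, and passed in neither contrast (−0.33 and −0.16).

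Of the 5 lysyl oxidases, which start collagen and elastin crosslinks, 0 passed both thresholds in Obese animals and 1 with Cmpd 1. Loxl4 was at 8.01, 9.90, 9.03, 11.5 and 11.8 CPM in Lean and 5.92, 7.39, 8.23, 7.82 and 6.02 CPM in Obese rats. It was at 5.98, 4.58, 5.84, 5.26 and 4.65 CPM in Food matched and 8.29, 7.51, 10.1, 9.28 and 7.94 CPM in Cmpd 1 rats. Every Cmpd 1 rat was above every Food matched rat, while Lean and Obese rats overlapped at their edges. Loxl4 rose by 0.71 with Cmpd 1 (standard error 0.12, adjusted p = 0.00052 from edgeR). Its difference of −0.51 for Obese versus Lean passed the adjusted p and not the fold (standard error 0.12, adjusted p = 0.0018 from edgeR).

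Loxl2 was at 153, 155, 212, 232 and 245 CPM in Lean and 206, 197, 246, 238 and 205 CPM in Obese rats. It was at 173, 142, 201, 194 and 193 CPM in Food matched and 186, 165, 178, 190 and 205 CPM in Cmpd 1 rats, and the groups overlapped throughout. Its log2 fold changes were 0.13 and 0.03 and did not pass (adjusted p = 0.39 and 0.89 from edgeR). Loxl1, which acts on elastin, was at 71.4, 64.7, 51.5, 68.0 and 59.8 CPM in Lean and 76.5, 84.1, 107, 81.9 and 81.3 CPM in Obese rats. In Food matched rats it was at 100, 114, 96.7, 116 and 96.5 CPM and in Cmpd 1 rats at 59.2, 93.9, 60.5, 81.8 and 86.0 CPM, so neither pair of groups overlapped. Its differences of 0.45 (adjusted p = 0.0045 from edgeR) and −0.46 (adjusted p = 0.01 from edgeR) passed the adjusted p and not the fold. Lox (0.32, adjusted p = 0.034) and Loxl3 (0.21, adjusted p = 0.021 from edgeR) did the same for Obese versus Lean animals.

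**Figure D4:**
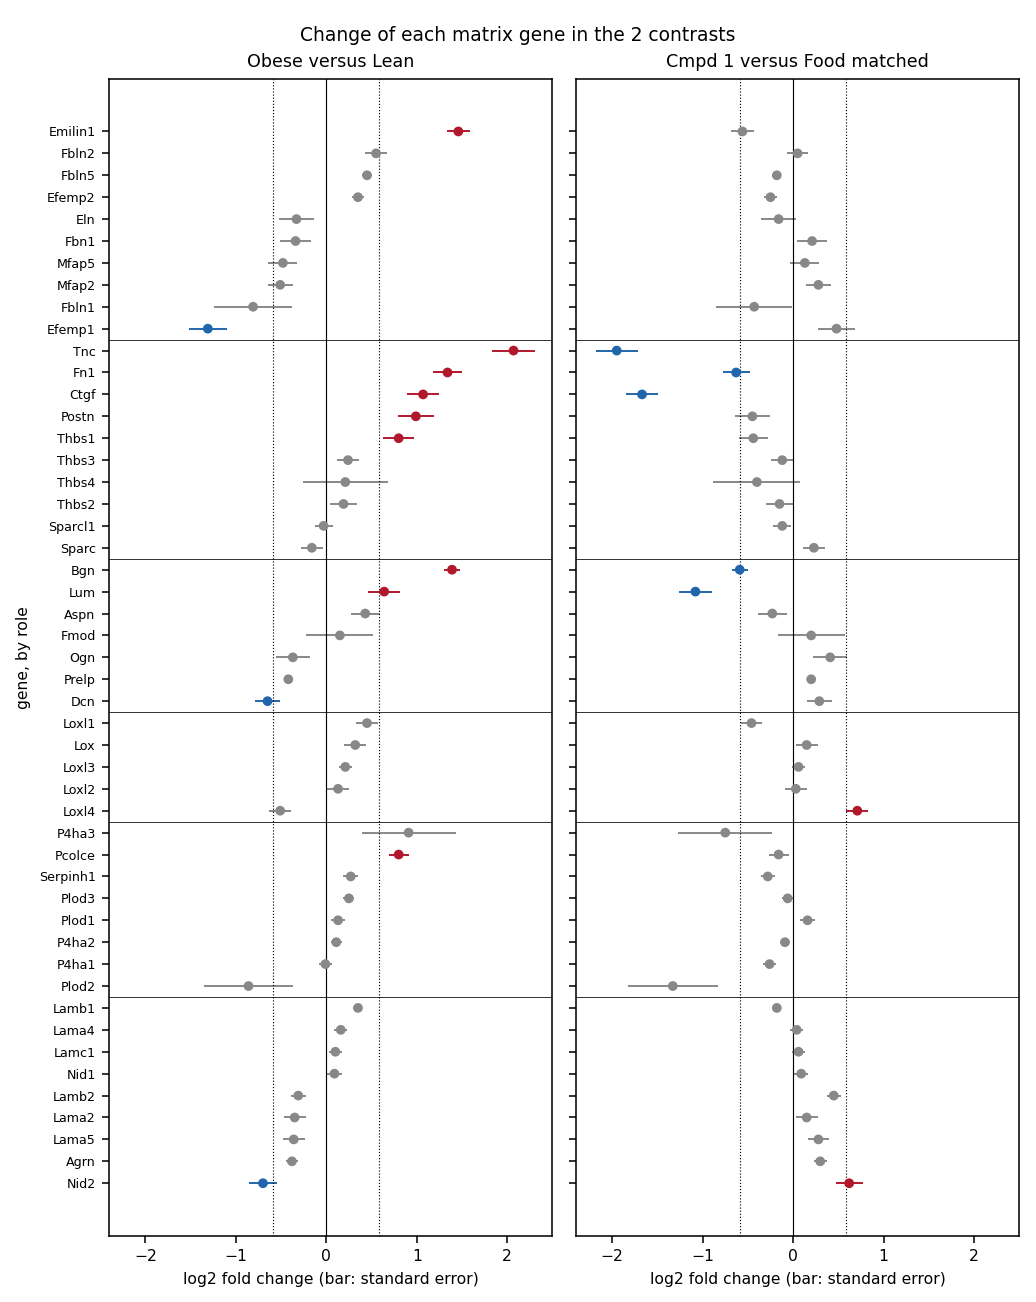
Log2 fold change of 49 matrix genes in Obese versus Lean (left) and Cmpd 1 versus Food matched animals (right), with bars of 1 standard error, ordered by role and by the left value. Red and blue mark genes called higher and lower, grey the rest, and dotted lines the fold of 1.5. Fbn2 and the second rows of Ogn and Aspn, all with few reads, are not drawn. Tnc and Ctgf lie furthest to the left on the right side among the called genes, at −1.95 and −1.67.

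Of the 8 collagen processing genes, 1 rose in Obese animals and 0 passed both thresholds with Cmpd 1. Pcolce, which enhances the cleavage of the procollagen C-propeptide, was at 168, 124, 155, 189 and 168 CPM in Lean and 249, 249, 353, 291 and 258 CPM in Obese rats. It was at 271, 232, 313, 309 and 278 CPM in Food matched and 281, 259, 218, 244 and 249 CPM in Cmpd 1 rats. All obese rats, treated or not, were above all Lean rats. Pcolce rose by 0.80 in Obese animals (standard error 0.11, adjusted p = 5.3e-06 from edgeR) and differed by −0.16 with Cmpd 1 (standard error 0.11, adjusted p = 0.32 from edgeR).

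Serpinh1 encodes HSP47, the chaperone of procollagen. It was at 875, 862, 1070, 1060 and 1060 CPM in Lean and 1240, 1150, 1270, 1150 and 1130 CPM in Obese rats. It was at 1260, 983, 1170, 1260 and 1260 CPM in Food matched and 1010, 1020, 865, 920 and 1060 CPM in Cmpd 1 rats. Lean and Obese rats did not overlap, whereas Food matched rat 2 lay among the Cmpd 1 rats. The differences of 0.27 (adjusted p = 0.0079 from edgeR) and −0.28 (adjusted p = 0.014 from edgeR) passed the adjusted p and not the fold. Among prolyl 4-hydroxylase subunits, which make collagen helices stable, P4ha1 differed by −0.01 and −0.26 and P4ha2 by 0.11 and −0.09. The P4ha1 difference with Cmpd 1 passed the adjusted p (0.0061 from edgeR) and not the fold, with no overlap between the groups. The rest of these values did not pass. P4ha3 ranged from 0.462 to 6.09 CPM within the Lean group, and its change of 0.91 did not pass (adjusted p = 0.16 from edgeR).

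The lysyl hydroxylases, which modify collagen before crosslinking, did not pass the fold in either contrast in the case of Plod1 (0.13 and 0.16) and Plod3 (0.25 and −0.06). Plod2 was at 13.0, 21, 6.17, 6.58 and 5.96 CPM in Lean and 4.11, 11.4, 4.82, 3.30 and 5.52 CPM in Obese rats. It was at 7.90, 23.8, 6.23, 6.59 and 3.17 CPM in Food matched and 1.5, 5.45, 5.52, 3.37 and 3.30 CPM in Cmpd 1 rats. Lean rats 1 and 2, which hold muscle transcripts, were the highest of their group, and Food matched rat 2 was the highest of all. The part of muscle in these values was not tested. Plod2 differed by −0.86 and −1.33 in the 2 contrasts and did not pass (adjusted p = 0.16 and 0.061 from edgeR).

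Of the 9 basement membrane genes tested, 1 fell in Obese animals and rose with Cmpd 1. This was Nid2, nidogen-2, which links laminin to collagen IV and lies on the minus strand of chromosome 15 (4894213 to 4951917 in rn6). It was at 230, 159, 265, 284 and 278 CPM in Lean and 156, 144, 169, 141 and 135 CPM in Obese rats. It was at 99.1, 84.6, 107, 126 and 153 CPM in Food matched and 176, 163, 154, 210 and 173 CPM in Cmpd 1 rats. Lean rat 2 lay among the Obese rats, and the lowest Cmpd 1 rat was just above the highest Food matched rat. Nid2 fell by 0.70 in Obese animals (standard error 0.15, adjusted p = 0.00054 from edgeR) and rose by 0.62 with Cmpd 1 (standard error 0.15, adjusted p = 0.0051 from edgeR). The latter was 0.53 to 0.57 and below the fold of 1.5 without Food matched rat 1, Food matched rat 2 or Cmpd 1 rat 4.

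Nid1, nidogen-1, was at 968, 834, 1100, 1150 and 1100 CPM in Lean and 1070, 1100, 1090, 1150 and 1090 CPM in Obese rats. It was at 1020, 908, 1210, 1090 and 1080 CPM in Food matched and 1140, 1060, 1120, 1180 and 1150 CPM in Cmpd 1 rats. The groups overlapped, and the log2 fold changes of 0.09 and 0.09 did not pass (adjusted p = 0.35 and 0.45 from edgeR). Agrn, agrin, a heparan sulfate proteoglycan, was at 114 ± 5.92 CPM in Lean, 87.3 ± 6.70 in Obese, 81.5 ± 9 in Food matched and 100 ± 3.13 in Cmpd 1 animals. Its differences of −0.38 (adjusted p = 6.5e-05 from edgeR) and 0.30 (adjusted p = 0.0029 from edgeR) passed the adjusted p and not the fold. Perlecan, the gene Hspg2, was read under a clone name that RefSeq pairs with it, and this row is not counted with the others. It was at 591 ± 134 CPM in Lean, 646 ± 19.3 in Obese, 581 ± 51.7 in Food matched and 697 ± 109 in Cmpd 1 animals and did not pass in either contrast (0.13 and 0.26).

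Laminins are trimers of an α, a β and a γ chain. The β chains Lamb1 and Lamb2 differed in opposite directions, each with an adjusted p under 0.05 and without the fold. Lamb2 was at 653, 515, 641, 650 and 683 CPM in Lean and 493, 520, 558, 469 and 497 CPM in Obese rats. It was at 424, 418, 469, 456 and 529 CPM in Food matched and 592, 577, 594, 699 and 676 CPM in Cmpd 1 rats. Lean rat 2 lay among the Obese rats, and every Cmpd 1 rat was above every Food matched rat. Lamb2 differed by −0.31 between Obese and Lean animals (standard error 0.08, edgeR adjusted p = 0.003) and 0.45 with Cmpd 1 (standard error 0.08, adjusted p = 0.00055 from edgeR). Lamb1 was at 342 ± 15.9 CPM in Lean, 436 ± 12.9 in Obese, 500 ± 32.4 in Food matched and 440 ± 14.7 in Cmpd 1 animals. It differed by 0.35 between Obese and Lean (adjusted p = 3.4e-06 from edgeR) and −0.18 with Cmpd 1 (adjusted p = 0.0078 from edgeR).

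Per length, Lamb1 reads were 0.574 ± 0.0572 of Lamb2 reads in Lean, 0.902 ± 0.0684 in Obese, 1.15 ± 0.131 in Food matched and 0.738 ± 0.0603 in Cmpd 1 animals. Values in Lean rats, 0.531 to 0.668, overlapped with those of Cmpd 1 rats, 0.65 to 0.801, and neither overlapped with the Obese range of 0.833 to 0.999. This ratio too was chosen after the values were seen and was not tested. Of the α chains, Lama4 differed by 0.16 for Obese versus Lean, Lama2 by −0.35 and Lama5 by −0.36, all with an adjusted p under 0.05 and without the fold (adjusted p = 0.046, 0.017 and 0.021 from edgeR). The γ chain Lamc1, which the trimers of these chains share, differed by 0.10 and 0.06 and did not pass.

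Per length, 48 of the 52 rows had a mean RPKM (CPM per kilobase of the deposited gene length) of at least 1 over the 20 libraries. Sparc was at a mean of 4910 RPKM, followed by Dcn at 688, Postn at 595, Serpinh1 at 518, Bgn at 257, Fn1 at 207 and Nid1 at 190 RPKM. Among laminin α chains Lama4 stood at 75.3, Lama2 at 17.3 and Lama5 at 5.00 RPKM. Loxl2 was the most abundant lysyl oxidase at 87.1 RPKM, and Loxl4, the one called with Cmpd 1, the least at 2.63 RPKM. Tnc, with the largest changes among called genes, was at 5.69 RPKM, whereas Bgn and Fn1, also called in both contrasts, were among the 7 most abundant.

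**Figure D5:**
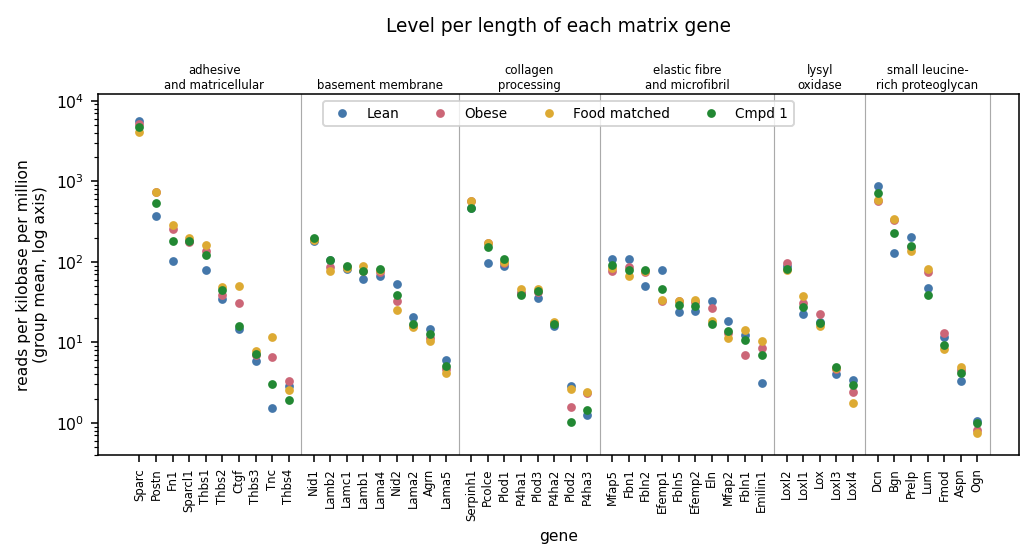
Group means in RPKM on a log axis, 1 column per gene, ordered by role and level, for genes with a mean of at least 0.5. The levels span from Sparc, at a mean of 4910, to Ogn, at 0.906, and the groups stand furthest apart for Tnc.

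Compared with the Obese rats that ate freely, Cmpd 1 rats had 0 matrix genes higher and 4 lower (7.69%), against 0.731% and 2.8% of all genes. Tnc (log2 fold change −1.11, edgeR adjusted p = 0.0041), Ctgf (−0.97, adjusted p = 0.0021) and Lum (−0.93, adjusted p = 0.003) fell with no overlap between the groups. Eln was the other one, at −0.66 (adjusted p = 0.028 from edgeR), and its groups overlapped. With p left unadjusted, 6 were higher at 0.05, beside 2505 of all 17653 genes, and limma-voom and DESeq2 also called 0 matrix genes higher. The Obese rats served as controls in this contrast and in the next as well as in Obese versus Lean.

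Between Food matched and Obese rats 0 matrix genes passed in either direction, and 0% of all genes were called higher and 0% lower. With p left unadjusted and under 0.05, edgeR gave 8 matrix genes in each direction, beside 921 higher and 966 lower of all 17653 genes. limma-voom called 0, and DESeq2 called Tnc (0.84, adjusted p = 0.046) and Ctgf (0.70, adjusted p = 0.032) higher in Food matched rats. The edgeR values were 0.84 for Tnc (standard error 0.22, adjusted p = 0.15) and 0.69 for Ctgf (standard error 0.18, adjusted p = 0.14). Without Food matched rat 5, the lowest of its group for Tnc, edgeR called both, at 0.99 (adjusted p = 0.022) and 0.80 (adjusted p = 0.023). How many of all genes DESeq2 or the fit without this rat called is not given here. Tnc and Ctgf were thus not shown to stand out among all genes in this contrast.

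Between Cmpd 1 and Lean rats, 7 matrix genes were higher (13.5%) and 4 lower (7.69%), against 7.47% and 9.11% of all genes. Higher were Emilin1 (log2 fold change 1.17, adjusted p = 8.4e-07 from edgeR), Tnc (0.96, adjusted p = 0.0025), Fn1 (0.86, adjusted p = 0.00019), Bgn (0.81, adjusted p = 7.8e-07), Fbln2 (0.66), Pcolce (0.64) and Thbs1 (0.61). Lower were Fbn2 (−1.96, adjusted p = 0.017 from edgeR), Plod2 (−1.47, adjusted p = 0.024), Eln (−0.99, adjusted p = 0.00044) and Efemp1 (−0.78, adjusted p = 0.0056). Eln was at 153, 153, 83.2, 93.2 and 110 CPM in Lean and 43.8, 61.5, 60.2, 58.0 and 75.5 CPM in Cmpd 1 rats, with no overlap. Fbn2, the fibrillin of developing tissue, rests on 6, 37, 1, 27 and 14 reads in Lean and 4, 4, 4, 1 and 5 reads in Cmpd 1 rats. Fbn2 and Plod2 did not differ across the 4 groups by the F test (adjusted p = 0.065 and 0.055 from edgeR), and without Lean rats 1 and 2 they were at −1.74 and −0.71 and no longer called. Leaving out Lean rat 2 alone also ended both calls (−1.56 and −1.05), as did leaving out Cmpd 1 rat 1 (−1.25) or 5 (−1.42) for Plod2.

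Further matrix genes from the same families, none of them counted above, were read beside these. For all the counts that follow, 11.3% of all genes rose and 11% fell in Obese animals. With Cmpd 1 relative to Food matched animals 1.54% of all genes rose and 4.65% fell. Of 11 other basement membrane genes 4 fell and 0 rose in Obese animals, and with Cmpd 1 4 rose and 0 fell. Lamb3, a laminin β chain (−1.88 and 1.12), Ntn4 (−2.01 and 0.81) and Ntn1 (−0.81 and 0.73), netrins that resemble laminin, were called in both. Frem1 fell in Obese animals (−0.63) and Egfl7, an endothelial matrix protein, rose with Cmpd 1 (0.64). Of 9 other proteoglycans 4 rose and 2 fell in Obese animals, and 3 fell with Cmpd 1, which were Vcan, versican (0.91 and −0.72), Bcan, brevican (2.30 and −1.38), and Prg4, lubricin (0.72 and −1.22). Of 20 other collagen processing genes 2 rose and 4 fell in Obese animals, and Cthrc1, a secreted protein of collagen-producing cells, was alone in falling with Cmpd 1 (2.33 and −0.98).

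Of 35 other glycoproteins 6 rose and 11 fell in Obese animals, and 3 rose and 7 fell with Cmpd 1. Of 16 fibrillar and basement membrane collagen chains 6 rose and 2 fell in Obese animals, and 1 rose and 1 fell with Cmpd 1, which were Col4a4 (0.73) and Col6a3 (−0.61). Col15a1, counted among those that rose, had almost no reads, at means of 0 CPM in Lean and 0.0182 in Obese animals. Col1a2, tested and not called, was at 0.0098 and 0.029 CPM, where Col1a1 was at 1520 and 3240 CPM. Both rows also enter the median of these chains. Of 5 CCN family genes other than Ctgf, Wisp2 rose in Obese animals (1.36), Cyr61 (−0.69) and Nov (−2.24) fell, and Nov rose with Cmpd 1 (0.87). Cyr61, which like Ctgf is a classic YAP and TAZ target, differed in the opposite direction from Ctgf in Obese animals and by −0.58 with Cmpd 1, where it passed the adjusted p and not the fold (adjusted p = 0.0013 from edgeR). The part of YAP and TAZ in the values of either gene was not tested. The median log2 fold changes for Obese versus Lean were −0.63 in the other basement membrane genes, 0.72 in the other proteoglycans, −0.25 in the other glycoproteins, 0.01 in the other collagen processing genes, 0.40 in the collagen chains and −0.69 in the CCN genes, beside −0.01 over all genes. With Cmpd 1 relative to Food matched animals the medians were, in the same order, 0.54, −0.31, 0.12, −0.08, 0.01 and −0.58, beside 0.01 over all genes.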

How the data were processed

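In each of 4 groups, 5 iWAT libraries were analysed. The table that the authors deposited holds raw counts per Ensembl gene, made from uniquely mapped reads of stranded mRNA libraries, with gene length and position. The study's methods name STAR and the rat build rn6, while the processing notes list STAR 2.5.2, Subread 1.5.1 and a human build, GRCh38. Whether counting used strand is not given in the sources used here, so a gene and an antisense partner may share reads. No column belonged to another sample, and 0 pairs of libraries were identical.

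As in the study's methods, a gene was left out if 10 or more of the 20 libraries had no read of it, which kept 17653 of 32545. edgeR 4.0.16 (R 4.3.3) fitted 1 quasi-likelihood model of the 4 groups to the counts, with TMM scaling and Benjamini-Hochberg adjustment over all genes. A call needed an adjusted p under 0.05 and a fold over 1.5. Principal components used log2 CPM with a prior count of 2. Deposited lengths served only for levels per length. limma 3.58.1 (voom), DESeq2 1.42.0, other scalings, filters and left-out rats were alternatives. The model was tested on simulated data first. Each group has 5 rats, whose number and depth (31716457 to 74784655 reads) limit the precision.

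The members, roles, gene lists and markers were chosen with earlier results of these data known. Values per rat were given for members called in both main contrasts, for the largest called members of each contrast (up to 6 per direction in the main contrasts and 3 in the others) and for the 2 members of each role with the highest level per length. Promoters are from RefSeq.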

Additional observations from a re-analysis of the deposited data

Results flagged for a closer look

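In 17 of 208 groups of 5 rats (8.17%), 1 rat lay far from the other 4 in the CPM of a matrix gene by Dixon's criterion, which by chance marks about 1 in 20 groups. Of these, 4 were in Cmpd 1 rat 1, 4 in Obese rat 3 and 3 in Food matched rat 2. Cmpd 1 rat 1 was low for Fbn1 (453 CPM, the others 807 to 885), Fbln2 (253, the others 348 to 380) and Thbs2 (214, the others 263 to 279) and high for Postn (2200, the others 1510 to 1680). Obese rat 3 was high for Loxl1 (107, the others 76.5 to 84.1), Loxl3 (17.6, the others 14.2 to 14.6), Thbs4 (16.7, the others 8.33 to 10.7) and Lamc1 (774, the others 619 to 657). Food matched rat 2 was high for Fbln1 (95.5, the others 25.3 to 43.8), Efemp1 (104, the others 54.1 to 62.7) and Plod2 (23.8, the others 3.17 to 7.90). Obese rat 2 was high for Fmod (90.4, the others 32.5 to 39.7) and Plod2 (11.4, the others 3.30 to 5.52). Lean rat 1 was high for Fbln5 (67.1, the others 57.3 to 58.9), Lean rat 4 for Fn1 (1160, the others 711 to 828) and Cmpd 1 rat 3 for P4ha3 (3.83, the others 1.84 to 2.32), while Lean rat 2 was low for Lamb2 (515, the others 641 to 683).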

How the results depend on the processing

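The 46 named values were recomputed under 30 alternatives, 20 of which leave out 1 rat, where a contrast allowed it. Of these recomputed values 1283 kept their direction and their side of the thresholds, 25 lost the call and 4 changed sign. The last were Nid1 (−0.02) and Loxl2 (−0.07) for Obese versus Lean without Lean rats 1 and 2, and Loxl2 with Cmpd 1 without Food matched rat 2 (−0.04) or Cmpd 1 rat 5 (−0.01), in a range of −0.04 to 0.07 over single rats, none of which was called before. Bgn with Cmpd 1 lost its call under 10 alternatives, at −0.53 to −0.58, among them library size alone (−0.55) and limma-voom (−0.58). With no fold threshold the counts were 20 higher and 11 lower for Obese versus Lean, 5 and 12 for Cmpd 1 versus Food matched, 2 and 8 for Cmpd 1 versus Obese and 16 and 9 for Cmpd 1 versus Lean. Over all 17653 genes they were, in the same order, 4180 and 4320, 2015 and 2016, 1251 and 1224, and 3591 and 3289. Leaving out 1 rat gave 8 to 12 higher and 2 to 4 lower for Obese versus Lean. It gave 1 to 3 higher with Cmpd 1 than in Food matched animals, with 1 without Food matched rat 1 or Cmpd 1 rat 4, and 3 to 7 lower, with 3 without Food matched rat 2. For Cmpd 1 versus Obese it gave 0 to 1 higher, with 1 without Obese rat 2 or Cmpd 1 rat 1, and 3 to 5 lower. For Food matched versus Obese it gave 0 to 2 higher, with 2 without Food matched rat 5, and DESeq2 also gave 2. For Cmpd 1 versus Lean it gave 5 to 8 higher and 3 to 4 lower, and without Lean rats 1 and 2 together 2 were lower. For Obese versus Lean the count was 13 higher and 3 lower without those 2 rats. The causes of these differences were not tested, and the fits with rats left out also hold fewer rats. Counts over all genes are not given for the fits with rats left out, for DESeq2 or for the replicate block below. A change in calling over all genes thus cannot be told from one in the matrix genes.

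Rats with the same number in different groups did not visibly deviate together (30 pairs, correlation −0.102 to 0.145, 1 of them over 0.1). For rats with different numbers it ran from −0.182 to 0.218 (120 pairs). No pairing by number was thus seen, although a weak one could be missed with 5 rats per group. With the number as a replicate block 9 genes were higher and 4 lower for Obese versus Lean, 2 and 5 with Cmpd 1 versus Food matched, and Bgn with Cmpd 1 was at −0.58. Fbn2 and the second rows of Ogn and Aspn rest on few reads, and Fbn2 also lost its call with limma-voom (−1.35).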
